A study of Rattus norvegicus with 6 samples.

Results

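The small nuclear RNAs (snRNAs) of the spliceosome, and U7 snRNA, are encoded by families of near-identical gene copies. Members were every gene of the count table whose name is exactly U1, U2, U4, U5, U6, U7, U11, U12, U4atac or U6atac. This gave 1443 of 32883 genes: 919 copies of U6, 220 of U1, 115 of U4, 86 of U2, 83 of U7, 13 of U5 and 7 of U12. The names U11, U4atac and U6atac had no gene in the table and are not analysed here. A gene named Rnu11 (ENSRNOG00000053078) lay outside the rule and held 0, 0 and 0 counts with pool A and 0, 4 and 4 counts with pool B.

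The libraries came from wild-type GH4C1, a rat pituitary cell line of the lactosomatotroph lineage, which makes growth hormone and prolactin. Cells were treated with psoralen, which crosslinks paired nucleic acid strands. RNA was then captured with oligonucleotides in a study of the paraspeckle RNA Neat1 and its direct RNA partners. A total of 3 libraries came from oligo pool A and 3 from oligo pool B; all shared the same cells and crosslinking. The labels do not give the sequences in the pools or say whether one pool was a control, and they do not say whether the 3 libraries of a pool came from separate cultures, so p-values measure only the spread between libraries, which may be technical. No input RNA or RNA from uncrosslinked cells was analysed here, so each comparison is of one captured RNA with another, and a difference in capture and a difference in the amount of RNA in the cells cannot be told apart.

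Within the major spliceosome, U1 snRNA pairs with the 5′ splice site, U2 pairs with the branch site, and U4 carries U6 in a paired form until U6 is released to build the catalytic centre, where U5 holds the exon ends. A minor spliceosome uses U11, U12, U4atac and U6atac in the matching roles and shares U5. U7 is not a splicing RNA; it pairs with histone pre-mRNA and directs the cut that forms its 3′ end. In mammalian genomes a few functional genes for each snRNA stand among many copies of the same sequence that are truncated, mutated or not transcribed, and a copy inside an intron of another gene can be read as part of that gene's pre-mRNA. The names in the table do not tell functional genes from such copies. snRNA names were compared as sums over all copies of a name and then copy by copy. How reads that match several copies were treated is not given in the sources used here. If they were divided among copies, the sums do not depend on the division but single copies do, and if they were discarded, both do, so the values of sums and of copies are uncertain.

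Total counts per library were 3685899, 2528563 and 3187664 for pool A and 2933953, 1826390 and 2643190 for pool B, so that 3 counts, the limit that a count of 0 allows, corresponded to 0.814 to 1.64 CPM (counts scaled to a library total of 1000000). All 7 lactosomatotroph markers had at least 10 counts in every library, and Gh1 lay between 149 and 187 CPM and Prl between 386 and 759 CPM. The lactosomatotroph list summed to 6519 to 7225 CPM with pool A and 29609 to 36632 CPM with pool B, mainly through Chgb. Of 7 markers of other pituitary cells, Fshb and Tshb were at 0 in every library, and the list summed to 14.6 to 26.0 CPM with pool A and 51.5 to 57.1 CPM with pool B. Most of that was Lhb, with 39, 23 and 51 counts against 120, 73 and 119 counts, higher with pool B in every library. Of 8 markers of fibroblasts, endothelium and blood, 6 were in the table, Col3a1 was at 0 and the list summed to 16.5 to 22.5 CPM with pool A and 8.76 to 17.0 CPM with pool B. The part of these marker differences in the results was not tested.

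snRNA genes held few of the counts in the table, and the ranges of the pools overlapped. If reads that match several copies were left out of the counts, which is not known, the shares below do not measure how much snRNA was recovered. The members held 4691 counts in all, or 0.0279% of all counts. Pool A libraries held 237, 272 and 284 CPM in member genes and pool B libraries 292, 267 and 333 CPM, with means of 264 ± 24 and 297 ± 33.4 (SD, n = 3 each). Most copies had no count: 1125 members (78.0%) had no count in any library, against 42.5% of all genes in the table, and 318 had at least 1 count. Among these 318 the median total was 5 counts over the 6 libraries and the highest 602 counts. A library showed counts in 143, 149 or 151 members with pool A and in 117, 101 or 139 with pool B. Counts lay in pool A libraries only for 108 members, in pool B libraries only for 64 and in both pools for 146, with totals that were larger for pool A. Only 24 members had counts in all 6 libraries.

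Summed over copies, no snRNA passed the test for a difference between the pools. Of the 7 names with genes, 5 had enough counts to be tested, with edgeR's quasi-likelihood test and Benjamini-Hochberg adjustment over 11571 genes; 0 of the 5 had an adjusted p under 0.05, against 40.5% of all genes tested. None had an unadjusted p under 0.05 either, and the DESeq2 test and limma-voom also called 0. The levels of the U4 and U12 sums did not overlap between the pools, while those of U1, U2, U5, U6 and U7 did. Differences are given as log2 fold changes of pool A over pool B with their standard errors, so that a positive value is higher with pool A. Levels are not compared between names, because no gene lengths were given.

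**Figure D1:**
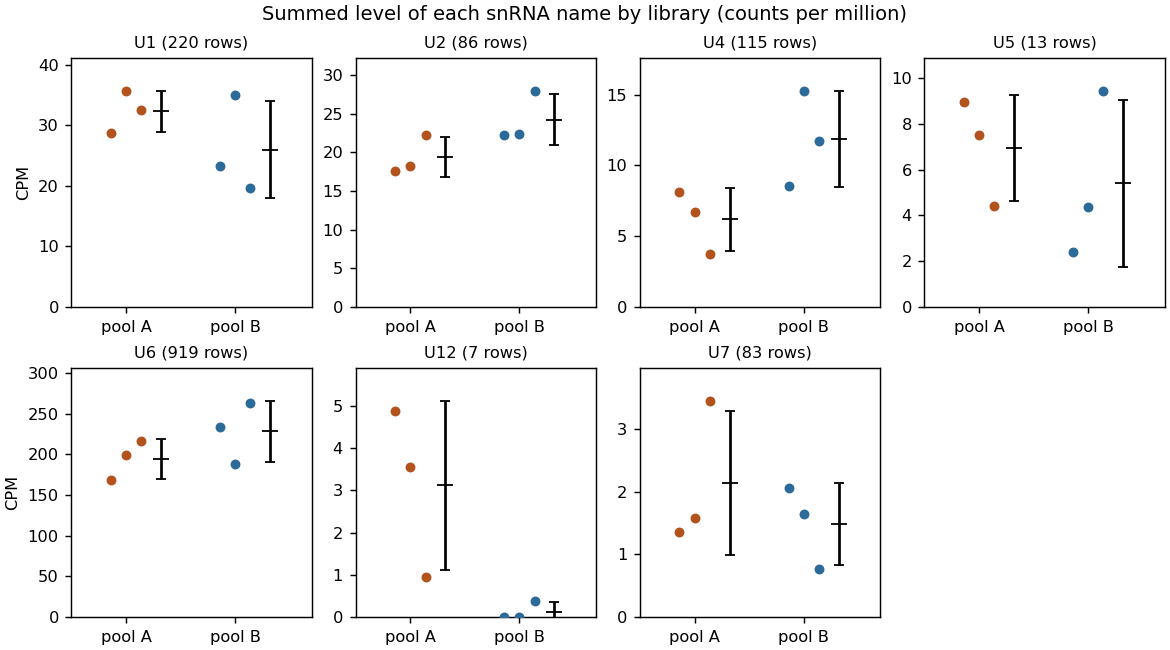
Summed CPM of each snRNA name (one panel a name, y axes from 0) in the 3 libraries of pool A and the 3 of pool B; points are libraries, bars mark the mean and whiskers the SD, ended at 0. The U4 points are all higher with pool B (8.52 to 15.3 CPM against 3.76 to 8.14), the U12 points are all higher with pool A, and the other names overlap.

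U1, which recognises the 5′ splice site, had 220 copies, of which 170 were at 0 in every library. Its sum was 106, 90 and 104 counts with pool A and 68, 64 and 52 counts with pool B, or 28.8, 35.6 and 32.6 CPM against 23.2, 35 and 19.7 CPM. Pool B replicate 2 reached into the pool A range, so the pools overlapped. The means were 32.3 ± 3.43 and 26.0 ± 8.05 CPM (SD, n = 3 each), and the difference was 0.48 ± 0.27 (SE; 95% interval -0.07 to 1.03; adjusted p = 0.164, edgeR). A single copy, ENSRNOG00000052149, held 2.67% of the U1 counts of pool A and 23.4% of those of pool B. Leaving out that copy, which is abundant through pool B, must move the sum toward pool A: it was then 0.82 ± 0.29 (edgeR adjusted p = 0.024), a value that the choice of the copy favours.

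U2, which pairs with the branch site, had 86 copies, 54 of them at 0 throughout. The sum was 17.6, 18.2 and 22.3 CPM with pool A and 22.2, 22.4 and 28.0 CPM with pool B, with overlap at the pool A library of 22.3 CPM. Means were 19.4 ± 2.53 and 24.2 ± 3.29 CPM (SD, n = 3 each), a difference of -0.18 ± 0.29 (SE; 95% interval -0.78 to 0.41; edgeR adjusted p = 0.655). The copy ENSRNOG00000052327 held 2.20% of the U2 counts of pool A and 34.4% of those of pool B. Leaving it out must likewise move the sum toward pool A, and gave 0.38 ± 0.33 (edgeR adjusted p = 0.380). The effect of leaving out ENSRNOG00000052674, which has 73 counts against 66 but a lower mean CPM and lies higher with pool A, was not tried.

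U4, the partner that keeps U6 inactive, had 115 copies with 92 at 0. Its sum was 30, 17 and 12 counts with pool A and 25, 28 and 31 counts with pool B, which is 8.14, 6.72 and 3.76 CPM against 8.52, 15.3 and 11.7 CPM. All pool B libraries were above all pool A libraries, with 8.14 and 8.52 CPM the nearest values. Mean levels were 6.21 ± 2.23 and 11.9 ± 3.41 CPM (SD, n = 3 each), a difference of -0.75 ± 0.49 (SE; 95% interval -1.77 to 0.26) that did not pass the test (edgeR adjusted p = 0.24). The copy ENSRNOG00000060176 held 6.78% of the U4 counts of pool A and 28.6% of those of pool B. Leaving it out must move the sum toward pool A, and gave 27, 16 and 12 counts against 13, 21 and 26 counts, which overlapped in CPM (-0.38 ± 0.55; edgeR adjusted p = 0.624).

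U5, shared by both spliceosomes, had 13 copies, 7 at 0. The sum was 8.95, 7.51 and 4.39 CPM with pool A and 2.39, 4.38 and 9.46 CPM with pool B. Pool B replicate 3 was the highest of all 6 libraries and the other pool B libraries the lowest. Means of 6.95 ± 2.33 and 5.41 ± 3.65 CPM (SD, n = 3 each) differed by 0.51 ± 0.60 (SE; 95% interval -0.72 to 1.75; edgeR adjusted p = 0.537), or by 1.24 without pool B replicate 3.

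U6, the catalytic snRNA and the one with most copies, had 919 copies, of which 722 (78.6%) were at 0. The sum was 618, 502 and 689 counts with pool A and 687, 343 and 695 counts with pool B, or 168, 199 and 216 CPM against 234, 188 and 263 CPM. The pools overlapped, with pool B replicate 2 below pool A replicates 2 and 3. Means were 194 ± 24.5 and 228 ± 37.9 CPM (SD, n = 3 each). The difference of -0.10 ± 0.15 (SE) had the narrowest interval of the 5 sums, -0.40 to 0.21 (edgeR adjusted p = 0.646), and its sign turned under upper-quartile scaling (0.01), without pool B replicate 3 (0.02) and without the copy ENSRNOG00000060360 (0.25), whose removal must move the sum toward pool A.

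U12, the minor spliceosome's counterpart of U2, had 7 copies, 3 of them at 0. It was recovered almost entirely with pool A: the sum was 18, 9 and 3 counts with pool A against 0, 0 and 1 count with pool B, or 4.88, 3.56 and 0.941 CPM against 0, 0 and 0.378 CPM. No library of one pool reached the range of the other, but pool A replicate 3 was far below the other pool A libraries. In CPM, the 30 counts of pool A were 23.6 times the 1 count of pool B, with a 95% counting interval of 3.93 to 964 that covers counting error only. U12 fell below the filter on low counts and was not tested there. With no filter its log2 fold change was 4.30 with an edgeR adjusted p of 0.0244.

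U7, the histone 3′ end RNA, had 83 copies, of which 77 (92.8%) were at 0. Its sum was 5, 4 and 11 counts with pool A and 6, 3 and 2 counts with pool B, or 1.36, 1.58 and 3.45 CPM against 2.05, 1.64 and 0.757 CPM. The pools overlapped, and every library but one lay at 6 counts or fewer. U7 was not tested under the filter; with no filter the difference was 0.64 (edgeR adjusted p = 0.753).

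Single copies differed between the pools in both directions. Of the 102 members with at least 10 counts over the 6 libraries, the CPM of the libraries did not overlap for 18 in favour of pool A and for 16 in favour of pool B, and they overlapped for 68. This is 33.3%, against 41.7% of all genes with as many counts. By name, the copies without overlap were 4 in favour of pool A and 2 in favour of pool B of 17 for U1, 2 and 1 of 9 for U2, 0 and 1 of 5 for U4, 11 and 12 of 66 for U6, and 1 and 0 of 1 for U12. For U5 there were none among 3 copies and for U7 none with 1 copy.

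The filter left 16 copies for the test of single genes: 12 of U6, 2 of U2 and 1 each of U1 and U5. They are 1.11% of the members and hold 41.7% of their counts. Of the 16, 5 were called in favour of pool A and 7 in favour of pool B at an edgeR adjusted p under 0.05, where 40.6% of the 11582 genes tested were called (18.6% in favour of pool A, 22.0% in favour of pool B). In 11 of the 16 one pool averaged under 10 counts, so most of these copies passed the filter through the pool in which they are high, and the number called is no measure of how often snRNA copies differ. The median log2 fold change of the 16 was -0.39 and that of all genes 0.02. The libraries of the pools did not overlap for 13 of the 16, where 49.1% of all genes tested did not. All 12 called copies differed by more than 2-fold. With counts above 3 in both pools, their log2 differences were 1.5 to 4.15 in size. Small differences at low counts are not readily called, and the part of this selection in the sizes was not tested.

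The called copies of both directions make up opposite shares of the snRNA counts. Together the 5 copies higher with pool A were at 38.5, 60.5 and 64.0 CPM with pool A and 8.18, 4.93 and 7.57 CPM with pool B. The 7 copies higher with pool B were at 18.7, 22.1 and 31.7 CPM with pool A and 115, 96.9 and 138 CPM with pool B. These values restate how both sets were chosen and carry no test. The 1427 untested members summed to 164, 171 and 170 CPM with pool A and 149, 148 and 169 CPM with pool B.

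**Figure D2:**
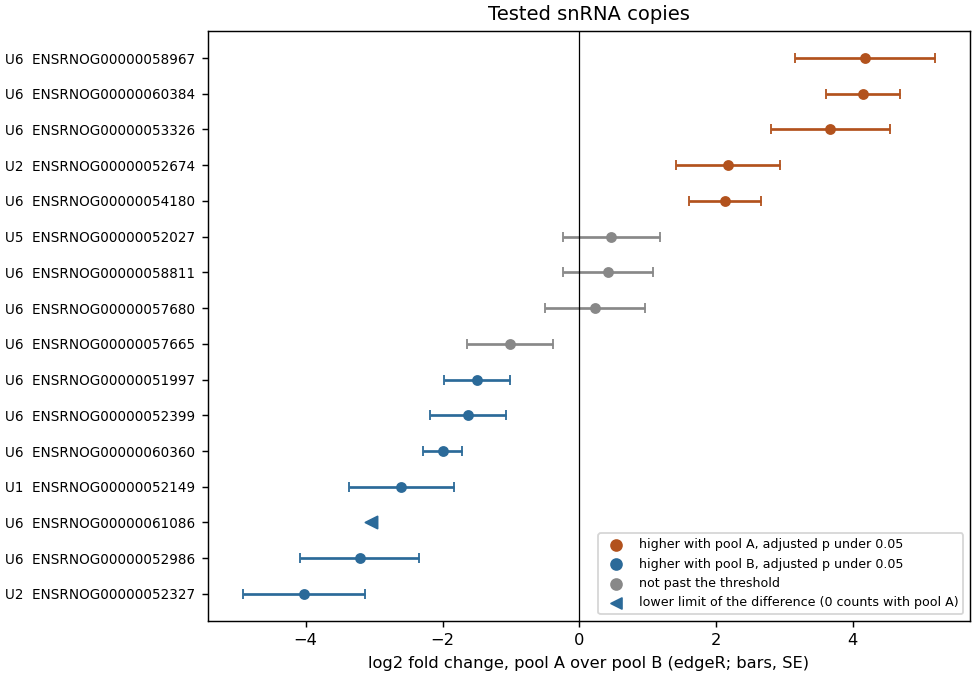
Log2 fold change of pool A over pool B (x axis) for the 16 tested snRNA copies (one line each), with bars for the standard error; colours mark the direction of copies with an edgeR adjusted p under 0.05, and the triangle is the lower limit for a copy with 0 counts in pool A. The limit takes the pool B mean as observed, without its spread. Of the 16 copies, 5 lie to the right and 7 to the left past the threshold, and U6 has copies on both sides.

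U6 had copies called in each direction, 4 in favour of pool A and 5 of pool B. Among copies higher with pool A, ENSRNOG00000060384 held 59, 69 and 72 counts with pool A and 7, 1 and 2 counts with pool B. The pools lay far apart, at 16, 27.3 and 22.6 CPM against 2.39, 0.548 and 0.757 CPM. This is 22 ± 5.67 against 1.23 ± 1.01 CPM (SD, n = 3 each) and a log2 fold change of 4.15 ± 0.54 (SE; edgeR adjusted p = 3.78e-07), which was 5.08 without pool B replicate 1. Copy ENSRNOG00000054180 was at 8.14, 11.5 and 20.7 CPM with pool A and 4.43, 2.19 and 3.03 CPM with pool B. All pool A libraries were above all pool B libraries, by 2.13 ± 0.53 (SE; edgeR adjusted p = 0.00187), and pool A replicate 3 was the highest. ENSRNOG00000053326 held 15, 19 and 30 counts with pool A and 0, 2 and 2 counts with pool B, again without overlap. Its means were 7.0 ± 2.71 and 0.617 ± 0.561 CPM (SD, n = 3 each), a difference of 3.67 ± 0.87 (SE; edgeR adjusted p = 0.00116) that was 3.02 without pool B replicate 1. The last U6 copy higher with pool A, ENSRNOG00000058967, held 17, 17 and 15 counts against 0, 2 and 0 counts. It was 19.3 times higher in CPM on these 49 and 2 counts, with a 95% counting interval of 5.06 to 164 that covers counting error only (edgeR adjusted p = 0.00156). Its fitted log2 fold change of 4.18 was 3.53 without pool B replicate 1, and both counts of pool B came from replicate 2, without which pool B was at 0.

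Among U6 copies higher with pool B, ENSRNOG00000060360 held the most counts of any member. It had 31, 30 and 72 counts with pool A and 188, 97 and 184 counts with pool B, or 8.41, 11.9 and 22.6 CPM against 64.1, 53.1 and 69.6 CPM. No pool A library came near the lowest pool B library. Means of 14.3 ± 7.39 and 62.3 ± 8.40 CPM (SD, n = 3 each) differed by -2.0 ± 0.28 (SE; edgeR adjusted p = 1.35e-06), and this copy made up 7.35% of the U6 counts of pool A and 27.2% of those of pool B. ENSRNOG00000061086 had 0 counts in each pool A library and 13, 10 and 38 counts with pool B, or 4.43, 5.48 and 14.4 CPM. Against 3 counts per pool A library, its mean pool B level was at least 8.26-fold higher (edgeR adjusted p = 4.27e-05). That bound was 5.05-fold without pool B replicate 3, which holds most of the counts. This bound and the others for copies with 0 counts in a pool take the mean of the higher pool as observed and leave out its spread. Copy ENSRNOG00000052986 held 0, 2 and 3 counts with pool A and 18, 11 and 15 counts with pool B, close together at 6.14, 6.02 and 5.67 CPM. Its log2 fold change was -3.21 ± 0.87 (SE; edgeR adjusted p = 0.00388), and -2.58 without pool A replicate 1.

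A further pair of U6 copies was higher with pool B by smaller amounts, and neither call held with every library left out. ENSRNOG00000051997 was at 5.70, 3.95 and 4.08 CPM with pool A and 19.1, 9.31 and 14.8 CPM with pool B, without overlap, a difference of -1.5 ± 0.48 (SE; edgeR adjusted p = 0.0133). Without pool B replicate 1, its highest library, the adjusted p was 0.0852. ENSRNOG00000052399 was at 2.98, 4.75 and 2.82 CPM with pool A and 7.5, 9.86 and 18.5 CPM with pool B, also without overlap, and differed by -1.63 ± 0.56 (SE; edgeR adjusted p = 0.0202). Its adjusted p was 0.0661 or 0.0665 when replicate 1 or 3 of pool A was left out, and 0.217 when replicate 3 of pool B was. A U6 copy below the filter, ENSRNOG00000057260, had 0 counts in each pool A library and 34, 3 and 21 counts with pool B. Its pool B level was at least 7.2-fold higher, or 4.89-fold without pool B replicate 1, and was not tested.

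The other 3 tested U6 copies did not pass the threshold. ENSRNOG00000057665 had 12, 5 and 12 counts with pool A and 15, 11 and 24 counts with pool B, or means of 3.0 ± 0.921 and 6.74 ± 2.08 CPM (SD, n = 3 each; log2 fold change -1.01 ± 0.63 (SE), edgeR adjusted p = 0.213), and its pools did not overlap. ENSRNOG00000058811 had 16, 13 and 19 counts against 14, 13 and 3 counts, and ENSRNOG00000057680 had 8, 13 and 19 counts against 25, 5 and 2 counts. In both of these the pools overlapped and 1 pool B library decided the sign of the difference: 0.42 and 0.23 became -0.04 and -0.27 without pool B replicate 3.

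**Figure D3:**
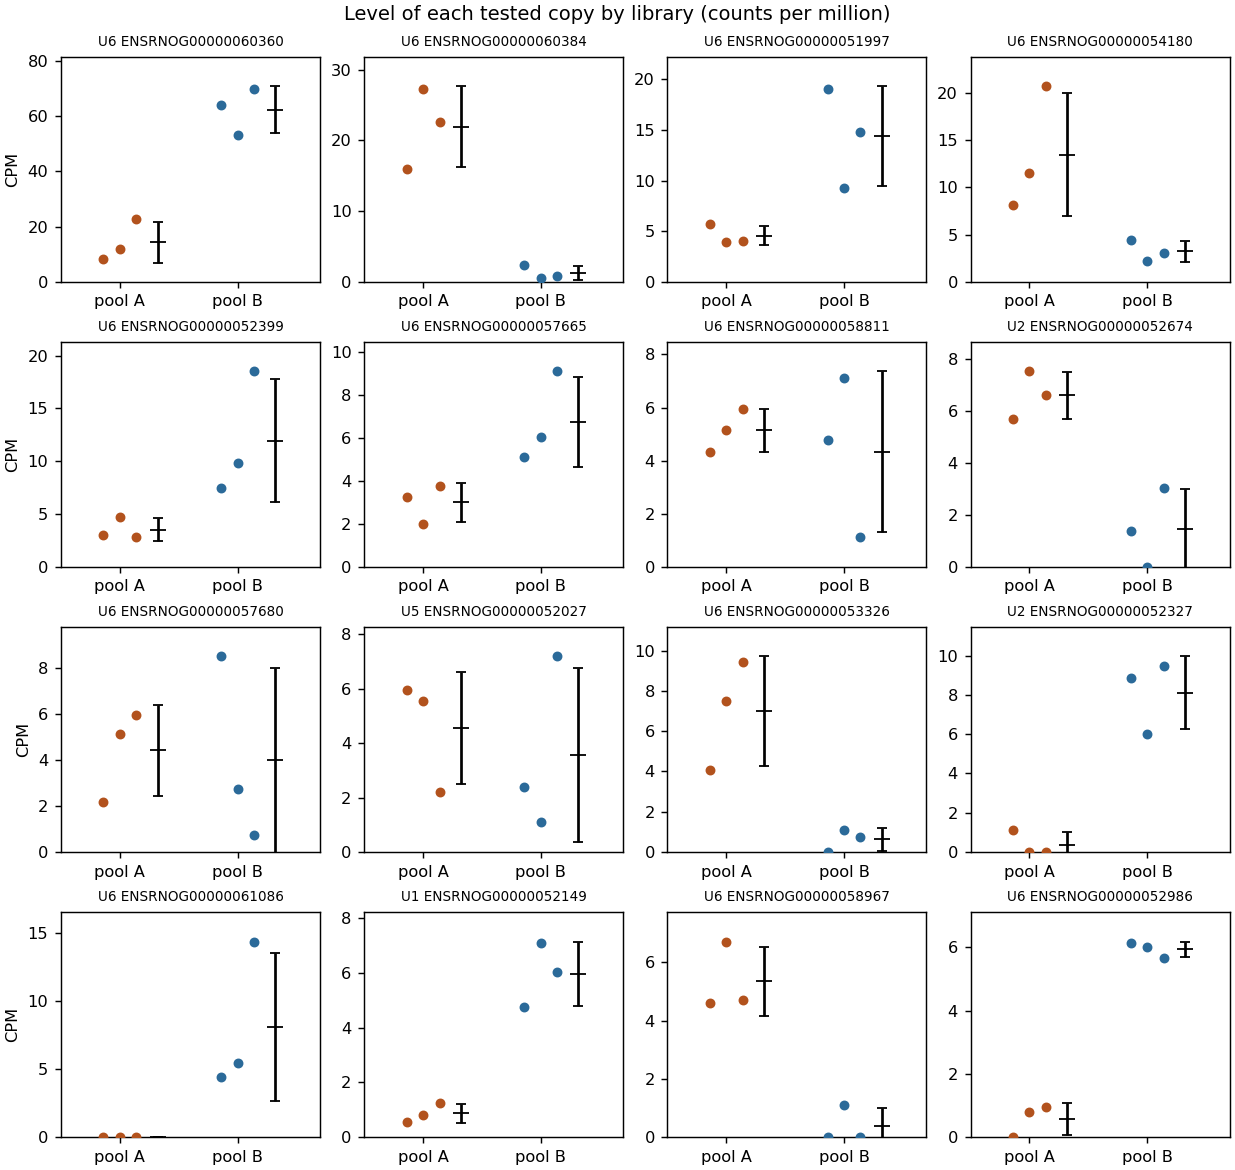
CPM of the tested snRNA copies in each library (one panel a copy; points are libraries, bars the mean and whiskers the SD of 3 libraries a pool, ended at 0). ENSRNOG00000060384 lies at 16 to 27.3 CPM with pool A and below 2.4 CPM with pool B, and ENSRNOG00000060360 at 53.1 to 69.6 CPM with pool B and 8.41 to 22.6 CPM with pool A.

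U1 and U2 copies also went both ways. The tested U1 copy, ENSRNOG00000052149, held 2, 2 and 4 counts with pool A and 14, 13 and 16 counts with pool B, or 0.863 ± 0.362 and 5.98 ± 1.17 CPM (SD, n = 3 each), without overlap. It was lower with pool A by a log2 fold change of -2.60 ± 0.77 (SE; edgeR adjusted p = 0.00797), with an adjusted p of 0.0571 without pool A replicate 1. Of the U1 copies that were not tested, ENSRNOG00000061201 held 3, 0 and 0 counts with pool A and 5, 13 and 9 counts with pool B, 11.4 times as high in CPM with a 95% counting interval of 3.52 to 58.9 that covers counting error only. All 3 counts of pool A came from replicate 1, so the ratio rests on that library. ENSRNOG00000058253 went the other way, with 9, 4 and 22 counts with pool A and 0 in each pool B library, at least 2.88-fold higher with pool A or 1.59-fold without pool A replicate 3.

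The U2 copy ENSRNOG00000052327 held 4, 0 and 0 counts with pool A and 26, 11 and 25 counts with pool B, or 8.86, 6.02 and 9.46 CPM with pool B against 1.09 CPM or less. Its log2 fold change was -4.03 ± 0.89 (SE; edgeR adjusted p = 0.000577), which was -3.45 without pool A replicate 3. All 4 counts of pool A came from replicate 1, and without it pool A was at 0 (edgeR adjusted p = 0.000413). The U2 copy ENSRNOG00000052674 went the opposite way, at 5.70, 7.51 and 6.59 CPM with pool A and 1.36, 0 and 3.03 CPM with pool B. The libraries did not overlap, and the difference was 2.18 ± 0.76 (SE; edgeR adjusted p = 0.0219). That call was lost when replicate 1 or 2 of pool A was left out (adjusted p of 0.0524 and 0.0937) and when replicate 1 or 2 of pool B was (0.0698 and 0.0963). Leaving out replicate 3 of pool B gave a difference of 3.13. A U2 copy below the filter, ENSRNOG00000054047, held 6, 5 and 13 counts with pool A and 7, 2 and 5 counts with pool B, and overlapped.

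Copies of U5, U4, U12 and U7 had low counts. The most abundant U5 copy, ENSRNOG00000052027, held 65.2% of the U5 counts of pool A and 70.0% of those of pool B. It had 22, 14 and 7 counts against 7, 2 and 19 counts, overlapped, and differed by 0.47 ± 0.71 (SE; edgeR adjusted p = 0.641), or by 1.47 without pool B replicate 3. ENSRNOG00000060577, also U5, held 11, 0 and 0 counts against 0, 2 and 3 counts, and ENSRNOG00000058970 held 0, 2 and 5 against 0, 4 and 1. Of the U4 copies, ENSRNOG00000060176 held 3, 1 and 0 counts with pool A and 12, 7 and 5 counts with pool B, without overlap. All 12 counts that pool B gave for the U4 copy ENSRNOG00000052742 came from replicate 2. The U4 copy ENSRNOG00000057747 held 6, 0 and 0 counts against 3, 6 and 0 counts. The U12 counts of pool A came mainly from ENSRNOG00000055594, with 15, 4 and 2 counts against 0 in each pool B library. That is at least 1.65-fold higher with pool A, and no fold can be given without pool A replicate 1. The next U12 copy was ENSRNOG00000054193, with 3, 3 and 1 counts against 0, 0 and 1, while ENSRNOG00000056619 held 1 count in all. Of the U7 counts, 11 of those of pool A replicate 3 lay in ENSRNOG00000052381, which held 0, 1 and 11 counts with pool A and 6, 3 and 1 counts with pool B. The next U7 copies were ENSRNOG00000054316, with 5 counts that all came from pool A replicate 1, and ENSRNOG00000056800, with 1 count.

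The genes next to the called copies were compared with them, since copies of snRNA genes often lie within or beside other genes. The nearest tested gene on at least one side was called in the same direction for 7 of the 12 called copies (58.3%), and only in the opposite direction for 2 (16.7%); 3 had no call beside them. Over the other 4687 called genes the shares were 41.4% with a same-direction call and 33.2% with an opposite call, counting genes with both under each. Across the 16 tested copies the log2 fold change of the copy and that of the gene before it in genomic order had a correlation of 0.52, and with the gene after it of -0.22, against 0.09 and 0.09 over 11564 other genes. These are descriptions over 16 points that share libraries, and with ENSRNOG00000061086 at its bound they were 0.50 and -0.34. Most of the 16 copies passed the filter through the pool in which they are high, so the other genes are no like baseline for the shares or correlations. For most copies matched below to a gene around them, that gene is the one before, so the genes before and after are not alike.

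A RefSeq gene list of the GRCr8 assembly was used to see which copies may lie inside a neighbouring gene. For 14 of the 16 copies both neighbours were in that list. For 9 of them it places a snRNA gene inside one of the neighbours, with a length within 10% of that of the snRNA in the copy's name. The identifiers of both sources were not linked, so this match is by position in the gene order and the length of the RefSeq gene only. The lengths of the copies themselves were not given. Of these 9 copies, 7 were called. The gene matched as surrounding was called the same way for 4 of the 7, the other way for 1 and not called for 2. Over all genes tested, 18.6% were called in favour of pool A and 22.0% in favour of pool B. The 41.4% above counts a call on either side and is not a like share.

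The 4 that went the same way were all U6 copies. Here and below, words such as around, inside and surrounding mean the match described above. The positions of the copies themselves were not known. Rnf14, a ubiquitin ligase gene around the copy ENSRNOG00000060360, was at 49.7 ± 12.3 CPM with pool A and 147 ± 5.87 CPM with pool B (SD, n = 3 each), a difference of -1.43 ± 0.17 (SE; edgeR adjusted p = 1.23e-07) beside -2.0 for the copy. Zfp445, a zinc finger gene around ENSRNOG00000051997, was at 33.0 ± 8.59 and 152 ± 7.18 CPM and differed by -2.04 ± 0.19 beside -1.5 for the copy. Atf6, a transcription factor gene of the unfolded protein response around ENSRNOG00000052399, differed by -0.83 ± 0.16 beside -1.63. Wee1, which encodes a kinase that holds back mitosis and surrounds ENSRNOG00000058967, was the 1 of the 4 higher with pool A, at 30.6 ± 12.6 against 7.76 ± 3.50 CPM, a difference of 2.16 ± 0.39 (SE; edgeR adjusted p = 6.19e-05). The reads of the copy and of the surrounding gene's pre-mRNA were not separated, and the part of one in the other was not tested.

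Other copies differed in another direction than the gene around or beside them, or beside genes that were not called. Thumpd3 was lower with pool A by a log2 fold change of -1.25 ± 0.15 (SE; edgeR adjusted p = 7.03e-08), at 130 ± 26.1 and 338 ± 28.9 CPM, while the U6 copy ENSRNOG00000054180 inside it was higher with pool A by 2.13. R3hdm2 differed by 0.04 ± 0.14 (edgeR adjusted p = 0.849) around the U6 copy ENSRNOG00000052986, at -3.21. Tada3, a subunit gene of histone acetyltransferase complexes, differed by 0.30 ± 0.23 (edgeR adjusted p = 0.328) around the U2 copy ENSRNOG00000052674, at 2.18. The U2 copy ENSRNOG00000052327, at -4.03, lay between Dynlrb1 (-0.03 ± 0.21) and Map1lc3a (0.72 ± 0.36), neither of which was called. RGD1307929, beside the U6 copy ENSRNOG00000053326 at 3.67, was lower with pool A (-0.76 ± 0.14, SE; edgeR adjusted p = 8.95e-05).

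Copies without a matched snRNA gene inside a neighbour could also stand beside a gene called the same way. Eif4e, the gene of the cap-binding translation factor, stood beside ENSRNOG00000061086, which was not placed inside a gene, and was lower with pool A by -1.61 ± 0.20 (SE; edgeR adjusted p = 1.41e-07). Atrx, a chromatin remodeller gene, stood beside ENSRNOG00000060384, and RefSeq has a snRNA gene inside Atrx whose length did not match that of U6. Atrx was higher with pool A by 0.91 ± 0.16 (SE, edgeR adjusted p = 5.01e-05). Slc25a40 stood beside the U1 copy ENSRNOG00000052149, whose neighbours were not both in the RefSeq list. It was lower with pool A by -1.23 ± 0.41 (SE, edgeR adjusted p = 0.0183), beside -2.6 for the copy.

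**Figure D4:**
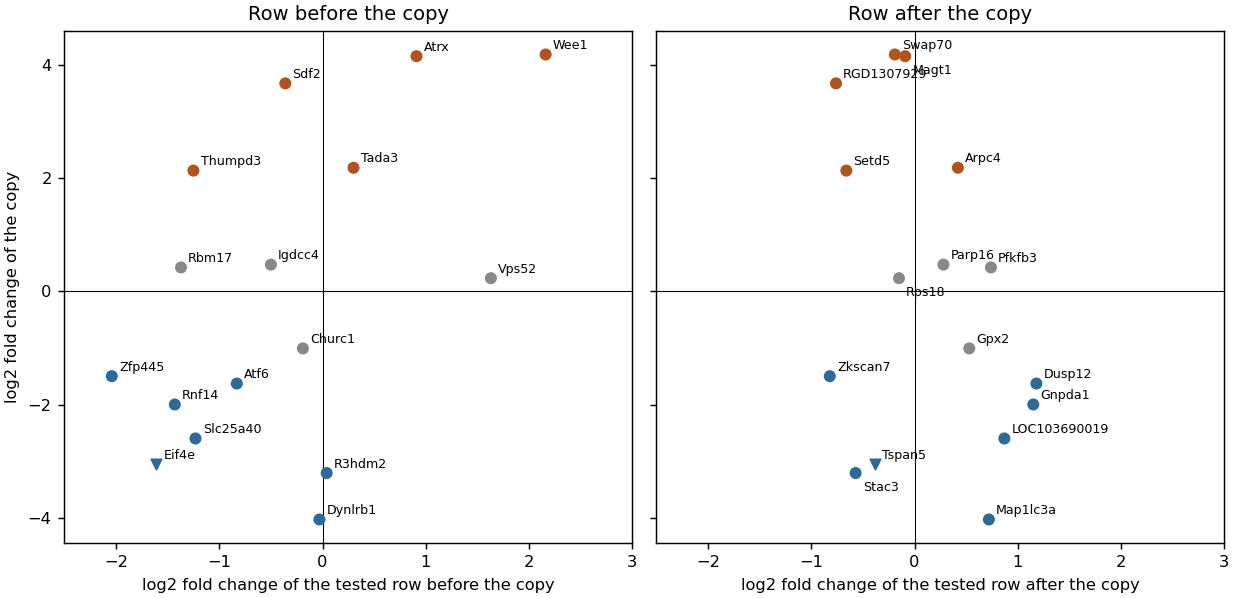
Log2 fold change of pool A over pool B of each tested snRNA copy (y axis) against that of the nearest tested gene before it (left) and after it (right) in the table (x axis), one labelled point for each of 16 copies; orange marks copies called in favour of pool A, blue those of pool B, grey those not called, and the triangle ENSRNOG00000061086 at its bound. The correlations, 0.52 with the gene before and -0.22 with the gene after, used its fitted value. For most copies matched to a gene around them, that gene is the one before.

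The mRNAs of the snRNAs' protein partners differed between the pools in both directions. Of 113 genes in 8 lists, 107 were in the table and 101 were tested, with 25 called in favour of pool A, 16 in favour of pool B and 60 not called. The split depended on the scaling, with 16 and 16 under total counts only and 32 and 16 under upper-quartile factors. The share called, 40.6%, stood beside 40.6% of all genes tested, both under TMM scaling. By list it was 42.9% for Sm, 50.0% for LSm, 26.7% for U1 and U2 and 56.2% for U4, U5 and U6 proteins. It was 36.4% for the minor spliceosome, 55.0% for transcription and 3′ processing, 23.5% for assembly and transport and 28.6% for histone mRNA processing. The median log2 fold change of the 101 genes was 0.19 beside 0.02 for all genes, with a range from -2.34 to 4.55. The values are of mRNAs and say nothing of the proteins on the snRNAs.

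**Figure D5:**
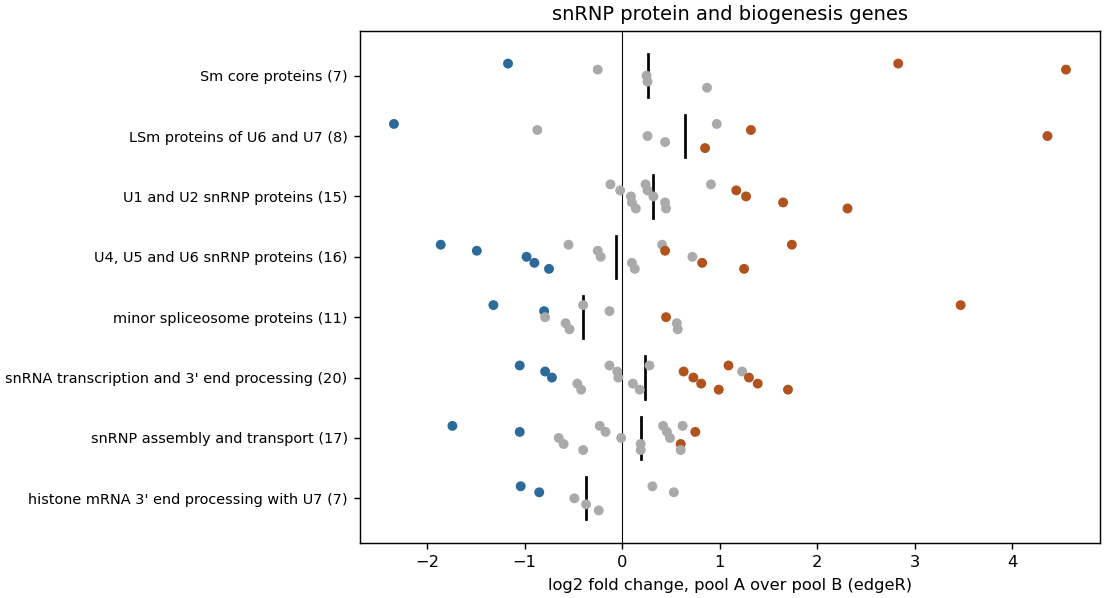
Log2 fold change of pool A over pool B of each tested gene (points) in the 8 lists of snRNP proteins and snRNA biogenesis factors; orange points are higher with pool A and blue points with pool B at an edgeR adjusted p under 0.05, grey points were not called, and black lines mark the median of a list. Snrpg (4.55) and Lsm2 (4.36) lie farthest to the right and Lsm7 (-2.34) farthest to the left.

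The Sm core proteins form the ring around U1, U2, U4, U5, U11, U12 and U4atac, and rings with related LSm proteins are found on U6, U6atac and U7. Of 7 tested Sm genes, 2 were called in favour of pool A, 1 in favour of pool B and 4 were not called. Snrpg was at 181, 194 and 145 CPM with pool A and 11.2, 8.76 and 4.54 CPM with pool B. Far apart in every library, these gave a log2 fold change of 4.55 ± 0.25 (SE; edgeR adjusted p = 2.67e-14). Snrpf was also higher with pool A, at 231 ± 24.1 and 36.3 ± 8.39 CPM (2.83 ± 0.18), and Snrpd3 was higher with pool B, at 28.6 ± 2.25 and 70.8 ± 8.93 CPM (-1.17 ± 0.21). Of 8 tested LSm genes, 3 were called in favour of pool A and 1 in favour of pool B. Lsm2 was at 132, 118 and 115 CPM with pool A and 5.45, 6.57 and 7.57 CPM with pool B, a difference of 4.36 ± 0.24 (SE; edgeR adjusted p = 2.02e-14). Lsm7 went the other way without overlap, at 17.6, 18.6 and 24.5 CPM against 98.8, 89.2 and 148 CPM (-2.34 ± 0.22, SE; edgeR adjusted p = 1.47e-09). Lsm4 and Lsm3 were higher with pool A by 0.85 ± 0.15 and 1.32 ± 0.39, and the adjusted p of Lsm3, 0.00768, was 0.0676 without pool A replicate 2. Lsm2, Lsm3, Lsm4 and Lsm7 all belong to the U6 ring, so genes of one ring lay on both sides.

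Among proteins particular to the U1 and U2 particles, 4 of 15 were higher with pool A, none was higher with pool B and 11 were not called; the 4 became 7 with upper-quartile scaling. Snrnp70, the U1 protein that binds the first U1 stem-loop, was at 3280 ± 365 and 1603 ± 94.8 CPM (SD, n = 3 each), a difference of 1.17 ± 0.14 (SE; edgeR adjusted p = 5.24e-08). The U2 proteins Sf3a2 and Sf3b6 were higher with pool A by 1.65 ± 0.21 and 2.31 ± 0.42, the latter by 3.07 without pool B replicate 3. Of 16 tested proteins of the U4, U5 and U6 particles, 4 were called in favour of pool A, 5 in favour of pool B and 7 not called. Prpf6, a bridging protein of the tri-snRNP, was at 576 ± 84.4 and 191 ± 24.9 CPM (1.74 ± 0.14, SE; edgeR adjusted p = 7.48e-11). The U5 protein genes Cd2bp2 and Eftud2 were higher with pool A by 1.25 ± 0.14 and 0.82 ± 0.17, while Snrnp200, the U5 helicase gene, was lower with pool A (-0.75 ± 0.13) and Prpf8 was not called (0.13). Sart3, which helps U4 and U6 to pair again after splicing, was at 123, 139 and 159 CPM with pool A and 533, 626 and 535 CPM with pool B. It was lower with pool A by -1.86 ± 0.14 (SE; edgeR adjusted p = 9.23e-12), as were the tri-snRNP protein genes Prpf3 (-0.98 ± 0.13) and Sart1 (-0.90 ± 0.14).

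Of 11 tested genes of minor spliceosome proteins, 2 were called in favour of pool A, 2 in favour of pool B and 7 not called. Pdcd7, a protein of the particle that U11 and U12 form together, was at 55.6, 67.2 and 67.1 CPM with pool A and 6.82, 8.76 and 3.78 CPM with pool B, a difference of 3.47 ± 0.29 (SE; edgeR adjusted p = 1.36e-10). Snrnp48 and Zcrb1, proteins of the same particle, were higher with pool B, at -1.32 ± 0.23 and -0.80 ± 0.21. Zrsr2, which recognises the 3′ splice site, was higher with pool A by 0.45 ± 0.18 at an adjusted p of 0.0497 that ranged from 0.0163 to 0.202 over the other settings. Its call was lost, leaving 1 gene of the list in favour of pool A, with total counts only, no filter, limma-voom, the replicate block (adjusted p = 0.0655) and library sizes without ribosomal DNA. The same held without replicate 2 or 3 of either pool.

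Of 20 tested genes of snRNA transcription and 3′ processing, 8 were called in favour of pool A, 3 in favour of pool B and 9 not called. The 8 became 4 with total counts only or when replicate 3 of pool B was left out, and 5 when replicate 2 or replicate 3 of pool A was. Within SNAPc, the complex that binds snRNA promoters, Snapc3 was higher with pool A (1.7 ± 0.29) and Snapc4 higher with pool B (-1.05 ± 0.25). Within Integrator, which cleaves the 3′ ends of snRNAs made by RNA polymerase II, Ints11, the catalytic subunit, was at 74.6 ± 25.6 and 31.8 ± 1.92 CPM (1.39 ± 0.24, SE; edgeR adjusted p = 2.65e-05). Ints2 was higher with pool A by 1.30 ± 0.27, and Ints10 was higher with pool B (-0.72 ± 0.18). Zfp143, an activator of snRNA promoters, was higher with pool B (-0.79 ± 0.25; edgeR adjusted p = 0.012), with an adjusted p of 0.0623 when replicate 3 of pool A was left out and 0.129 when that of pool B was.

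Of the assembly and transport genes, 17 were tested, with 2 called in favour of pool A and 2 of pool B (23.5%, beside 40.6% of all genes tested). The calls in favour of pool A became 0 with total counts only and without pool A replicate 2, and 1 without any other library except pool A replicate 3. The DESeq2 test and limma-voom also left 1. Phax, the adaptor that exports newly made snRNAs from the nucleus, was at 11.7, 10.3 and 17.9 CPM with pool A and 52.5, 52.0 and 43.1 CPM with pool B, without overlap. The difference was -1.74 ± 0.27 (SE; edgeR adjusted p = 5.08e-06), and Zpr1, a partner of the SMN complex, was also higher with pool B (-1.05 ± 0.25). Strap, a subunit of the SMN complex, and Tgs1, which makes the trimethylated cap of snRNAs, were higher with pool A by 0.75 ± 0.27 and 0.60 ± 0.24. Their adjusted p values of 0.025 and 0.0438 ranged up to 0.192 and 0.253 over the other settings, the first when replicate 2 of pool A was left out and the other when replicate 1 of pool B was.

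Of 7 tested genes of histone mRNA 3′ processing, the process that U7 serves, none was higher with pool A, 2 were higher with pool B and 5 were not called. With upper-quartile scaling 2 were called in favour of pool A, and 1 was without pool A replicate 1, pool A replicate 2 or pool B replicate 1. Slbp, which binds the histone mRNA stem-loop, was at 42.1 ± 10.2 and 83.7 ± 16.2 CPM (SD, n = 3 each; -0.85 ± 0.21, SE; edgeR adjusted p = 0.00166). Cpsf2, a subunit of the cleavage complex, was at 51.1 ± 1.56 and 117 ± 14.3 CPM (-1.04 ± 0.17, SE; edgeR adjusted p = 1.94e-05). The U7 sum itself fell below the filter on low counts.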

How the data were processed

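The authors deposited raw counts per gene for 6 libraries (paired reads of 150 bases, per the labels). The submitters' processing notes name STAR and featureCounts; the genome build, annotation, filters and treatment of reads that match several genes are not given in the sources used here. Counts were used as deposited. Genes were tested with edgeR 4.0.16 in R 4.3.3 (TMM scaling, filterByExpr, quasi-likelihood test, pool as the only term), with Benjamini-Hochberg adjustment over all genes tested and a threshold of 0.05. A second fit replaced the copies of each name by their sum. CPM are counts scaled to a library total of 1000000. Scripts were tested on simulated data. The members and the gene lists were chosen with earlier results of these data known. Named were the sums, the 3 copies of each name with the highest mean CPM, up to 3 called copies a direction with a mean of at least 10 counts, and up to 3 called genes a list and direction. The copies ENSRNOG00000058967, ENSRNOG00000052986, ENSRNOG00000057260, the neighbouring genes, Snrnp200 and Prpf8 were named after their values were seen. Alternatives were other scalings, filters, tests (DESeq2 1.42.0, limma-voom in limma 3.58.1), a replicate block, leaving out 18 ribosomal DNA genes from library sizes, and leaving out each library. Counting intervals are 95% and exact. Libraries of a pool differed by more than sampling noise. No sequence is shown.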

Additional observations from a re-analysis of the deposited data

How the results depend on the processing

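The 12 called copies were called in the same direction under DESeq2 size factors, total counts only, upper-quartile scaling, the DESeq2 test, limma-voom, the replicate block and library sizes without ribosomal DNA. With no filter 9 copies were called in favour of each pool; with at least 10 counts in every library only 2 copies were tested, and 0 favoured pool A and 2 pool B. Leaving out 1 library gave 4 to 6 copies in favour of pool A and 6 to 8 of pool B. Each such fit lost 1 to 3 of the 12 calls, 3 without pool A replicate 1. The replicate block gave 5 and 7 copies. Same-numbered libraries had deviations with correlations of 0.0417, -0.0133 and 0.0255, so the numbers were not treated as pairs, and the block gave 2085 and 2476 genes in all, beside 2154 and 2546.

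The U1 sum became 0.82 and the U2 sum turned to 0.38 without the copy of each name with the highest mean CPM, which is abundant through pool B, so the shift toward pool A is built into that choice. The U6 sum turned to 0.01 with upper-quartile factors and, by the same choice, to 0.25 without its most abundant copy, and leaving out 1 library gave -0.228 to 0.023. The same range was 0.32 to 0.72 for U1, -0.25 to -0.06 for U2, -1.02 to -0.44 for U4 and 0.13 to 1.24 for U5, with U5 at 1.24 without pool B replicate 3. With a library left out, U12 passed the filter only without pool B replicate 2 (3.97, edgeR adjusted p = 0.0399) or replicate 3 (adjusted p = 0.017, with pool B at 0). U7 gave no value under it, nor did U5 without its most abundant copy or with at least 10 counts in every library. Among copies that were not called, ENSRNOG00000057680 turned to -0.267 and ENSRNOG00000058811 to -0.043 without pool B replicate 3, with ranges up to 1.526 and 0.905 over the libraries left out. With total counts only, 16 list genes were higher with pool A in place of 25, and that scaling moved the median of all genes from 0.02 to -0.12 and the share of calls higher with pool A from 45.8% to 37.2%; upper-quartile scaling moved the median to 0.12 and that share to 52.8%. Of 479 refits of named list genes 457 kept their call and 22 lost it. Of 1443 members, 1427 fell below the main filter, and 318 were tested with no filter.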
